A study of Mus musculus with 6 samples.

Results

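Entry into mitosis, alignment of the chromosomes, their separation and the division of the cell body each depend on genes whose transcripts accumulate in the G2 and M phases of the cell cycle. The 50 genes described here were taken from a list of such G2/M and mitosis genes. They were chosen by name and function, with earlier results of these data known, so the list is not independent of the values. They were found on the arrays through the gene symbol of each probe, old or current. Of the 50, 49 had at least 1 probe (94 probes in all) and 43 had a probe bright enough to be tested, among 13524 genes tested on the whole array. Ccnb1, which encodes cyclin B1, had no probe under either kind of name.

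The RNA came from CD8+ T cells taken from the spleens of C57BL/6 mice aged 6 weeks and was read on 6 Illumina mouse bead arrays, 2 for each of 3 groups. Cells were pre-treated with the vehicle DMSO, with epoxomicin, which inhibits the proteasome, at 0.5 µM, or at 1 µM with E9. E9 is known here only by its code, and the labels describe it as activating the proteasome. All 3 groups were then activated alike for 3 days, in medium with IL-2, on plates coated with antibodies to CD3 and CD28 at 5 µg/ml. The groups are therefore activated, dividing cells that differ in the earlier treatment, each compound at 1 dose, and resting cells were not among them. The design text calls the arrays of a group biological duplicates, but nothing says which arrays share an animal, a culture or a day, so p-values measure only the spread between these samples.

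Cyclin-dependent kinase 1, bound to cyclin A and then cyclin B, starts mitosis and is switched on by CDC25 phosphatases. Kinetochores, built on the centromere, bind the spindle, and those that are unattached keep the spindle checkpoint active, which holds back CDC20 and the anaphase-promoting complex. Once released, that complex marks cyclin B and securin with ubiquitin for destruction by the proteasome, separase opens the cohesin rings and the cell divides. These steps act on proteins, while the arrays measured the messenger RNA that supplies them. In mammals many of these genes are transcribed together late in the cycle through a promoter element called the cell cycle genes homology region (CHR), which is bound by the MuvB complex with B-MYB or FOXM1, and through CCAAT boxes bound by NF-Y.

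The deposited intensities were linear and had been brought by the authors to 1 common set of values on every array, from 22 to 18026.1 with a median of 34.2, so a change in total RNA could not be seen. A probe was taken as above background over an intensity of 34.5. Of the T cell markers, Cd8b1 read from 4753 to 7588, Cd8a was dim at 36.5 to 48.5, and the summed intensity of the 10 markers with a probe was 19611.8 to 19662.9 with DMSO, 22657.9 to 22933.4 with epoxomicin and 27594.7 to 28950.1 with E9. Sums over B cell markers (10 of 12 with a probe, Blk never above background) were 735.6 to 807.1, 420.5 to 446.6 and 680.9 to 796.9 in that order. Over NK cell markers they were 3012.8 to 3033.5, 3655.4 to 3939.9 and 3541.2 to 3716.3, most of it from Nkg7 and Eomes, with Ncr1 never above background. Over myeloid markers they were 326.5 to 348.7, 319.4 to 334.5 and 355.4 to 364.9, with Itgam, S100a9 and Itgax never above background.

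The promoters of the members are shown first, because the CHR is the element known to time such genes. RefSeq windows of 300 bases, from 250 before to 50 after the transcription start (GRCm38.p6), were at hand for 42 of the 50 members and not for Ccna2, Cdc25c, Aurkb, Incenp, Kif20a, Tpx2, Smc4 and Cdca2. Below are the 5 windows with the smallest p for E9 against DMSO among the 13 of changed members that hold a CHR and at least 2 CCAAT boxes, and that of Mad2l1, which holds neither. Capitals mark TTTGAA or TTTAAA (CHR) and CCAAT, on either strand, so that a CHR may read TTCAAA and a CCAAT box ATTGG. Each is written 5′ to 3′ on the gene's own strand.
Cdk1: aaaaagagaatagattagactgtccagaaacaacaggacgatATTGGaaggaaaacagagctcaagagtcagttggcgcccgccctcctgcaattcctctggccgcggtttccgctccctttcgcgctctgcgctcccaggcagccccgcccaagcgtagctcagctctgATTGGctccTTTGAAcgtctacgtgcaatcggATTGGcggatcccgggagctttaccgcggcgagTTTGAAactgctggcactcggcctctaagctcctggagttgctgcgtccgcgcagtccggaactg
Top2a: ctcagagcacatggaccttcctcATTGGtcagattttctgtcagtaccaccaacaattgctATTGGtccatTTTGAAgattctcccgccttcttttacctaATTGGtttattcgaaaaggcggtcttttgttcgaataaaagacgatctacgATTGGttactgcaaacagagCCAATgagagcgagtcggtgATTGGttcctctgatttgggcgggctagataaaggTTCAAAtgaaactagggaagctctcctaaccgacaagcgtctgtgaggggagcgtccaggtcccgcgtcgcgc
Mki67: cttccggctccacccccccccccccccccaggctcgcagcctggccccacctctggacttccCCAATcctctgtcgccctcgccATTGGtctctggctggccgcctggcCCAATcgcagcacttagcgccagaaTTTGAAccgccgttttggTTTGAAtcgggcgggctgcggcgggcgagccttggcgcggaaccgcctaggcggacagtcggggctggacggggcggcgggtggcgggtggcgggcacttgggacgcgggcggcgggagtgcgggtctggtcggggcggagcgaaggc
Cdca3: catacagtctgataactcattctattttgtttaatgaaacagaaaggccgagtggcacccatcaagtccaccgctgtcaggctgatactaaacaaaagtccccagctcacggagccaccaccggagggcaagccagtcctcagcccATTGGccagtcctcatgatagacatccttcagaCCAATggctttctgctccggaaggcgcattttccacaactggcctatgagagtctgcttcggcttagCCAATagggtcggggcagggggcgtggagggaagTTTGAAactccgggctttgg
Cenpf: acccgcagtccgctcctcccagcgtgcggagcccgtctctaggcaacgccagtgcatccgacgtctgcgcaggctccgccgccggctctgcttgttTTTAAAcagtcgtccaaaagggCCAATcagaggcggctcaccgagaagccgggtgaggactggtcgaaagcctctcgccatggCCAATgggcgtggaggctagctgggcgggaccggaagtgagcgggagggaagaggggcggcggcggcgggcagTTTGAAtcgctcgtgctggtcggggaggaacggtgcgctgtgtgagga
Mad2l1: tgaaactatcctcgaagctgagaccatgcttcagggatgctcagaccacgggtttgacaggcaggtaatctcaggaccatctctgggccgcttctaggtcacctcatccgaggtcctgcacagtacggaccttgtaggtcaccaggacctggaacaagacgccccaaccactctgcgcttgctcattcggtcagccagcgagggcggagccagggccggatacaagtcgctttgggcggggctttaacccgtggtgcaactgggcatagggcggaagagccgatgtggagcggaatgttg
They lie at chr10:69352863-69353162 (minus strand, Cdk1), chr11:99024140-99024439 (minus, Top2a), chr7:135716330-135716629 (minus, Mki67), chr6:124829926-124830225 (plus, Cdca3), chr1:189688037-189688336 (minus, Cenpf) and chr6:66534971-66535270 (plus, Mad2l1). The transcription start is the base after position 250 in each line.

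A CHR stood in 36 of the 42 member windows (85.7%), against 20.4% of the 9861 tested genes that have a window and 27.8% of all 27025 windows. CCAAT was present in 33 (78.6%, against 39.0% and 37.9%) and occurred at least 2 times in 22 (52.4%, against 14.8% and 12.2%). CHR and CCAAT stood together in 30 windows (71.4%, against 8.38% and 10.9%). In 32 members a CHR began within 50 bases of the start. For the E2F site of S-phase genes 4 words were sought, with TTCCCGC the usual form, TTCGCGC close to it, and both TTGCCGC and its relative TTGGCGC, and any of them stood in 9 windows (21.4%, against 15.9% and 9.69%). All words were sought on both strands, TTTAAA reads alike on each, and an ATTGG may share bases with a TTGGCGC or a CHR. Bub1, Cdc25b, Mad2l1, Nek2, Nuf2 and Nusap1 had no CHR in the window. These are matches of letters and show neither binding nor use of a site.

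**Figure D1:**
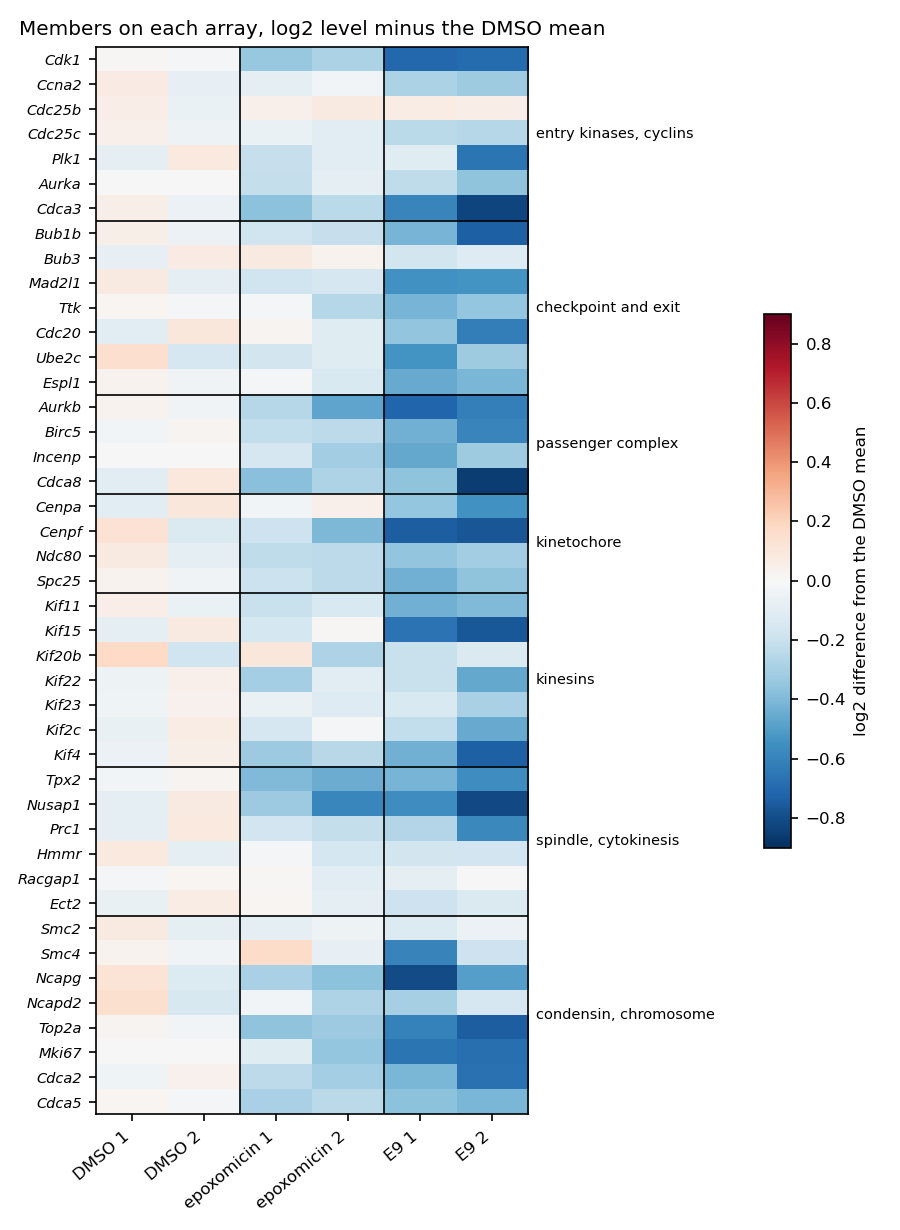
Each of the 43 tested members (rows, grouped by role) on each of the 6 arrays (columns), coloured by its log2 level minus the mean of the 2 DMSO arrays, blue for lower. The median member lies at -0.17 and -0.21 on the epoxomicin arrays and at -0.41 and -0.45 on the E9 arrays, and Cdc25b is the member above 0 on both E9 arrays.

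With epoxomicin before activation 1 of the 43 tested members passed the test against DMSO, as a fall. That gene was Tpx2, which encodes a microtubule-binding protein that activates Aurora A on the spindle. Its intensity was 164.1 and 171.5 with DMSO, 121.4 and 116.6 with epoxomicin and 119.1 and 105.5 with E9. The DMSO arrays lay above the other 4, and the epoxomicin and E9 arrays overlapped. With epoxomicin Tpx2 fell by 0.42 on the log2 scale (SE 0.071, limma adjusted p = 0.026, 2 arrays a group). A gene was said to rise or fall where its adjusted p (Benjamini-Hochberg over all 13524 genes) was under 0.05, which 1.26% of them met here and 0.547% met as a fall. Tpx2 lost this call when either DMSO array or either epoxomicin array was left out (adjusted p from 0.144 to 0.294). A group left with 1 array is then assumed to vary like the others. With either E9 array left out of the shared fit 4 members passed.

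The 43 members had a median log2 difference of -0.17 between epoxomicin and DMSO, while the median over all genes tested was 0.0021. On the log2 scale used, which carries an offset described below, -0.17 is -10.9%. A lower mean with epoxomicin was seen in 39 of the 43, and in 26 both epoxomicin arrays lay below both DMSO arrays (60.5%, where 20.3% of all genes did). At an unadjusted p under 0.05, 19 members were lower and 0 higher, where 5.67% of all genes were lower and 5.58% higher. In bulk RNA a smaller share of cells in G2 and M and less of these messages per cell cannot be told apart. The chromosomal passenger genes and the chromosome proteins held the lowest role medians (-0.28 and -0.25) and the kinesins the nearest to 0 (-0.09). The next lowest adjusted p belonged to Cdk1 (-0.31, SE 0.063, adjusted p = 0.0518), Top2a (-0.35, SE 0.070, adjusted p = 0.0541) and Aurkb (-0.37, SE 0.083, adjusted p = 0.0852), and the lowest difference to Nusap1 (-0.46, SE 0.11, adjusted p = 0.106). Bub3, Cdc25b, Cenpa and Smc4 had epoxomicin means above DMSO by 0.011 to 0.063 on the log2 scale, each with an interval that spans 0 and, when 1 array was left out (Cdc25b: when all its probes were averaged), a turned sign. The summed B cell markers were also lowest with epoxomicin. Of 8 tested, 5 fell (62.5%, against 0.547% of all genes) and 0 rose, and Igk-C read 199.1 and 229 with DMSO and 49.1 and 48.1 with epoxomicin. Of 10 tested T cell markers 1 rose and 0 fell, and 8 were higher at an unadjusted p under 0.05 in limma. The part of these markers' cells in the mitotic differences was not tested.

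E9 before activation left the mitotic messages lower at day 3: 31 of the 43 tested members fell and 0 rose against DMSO. The fall took in every tested gene of the passenger complex and of the kinetochore, 6 of 7 of the checkpoint and mitotic exit, 5 of 7 of the entry kinases and cyclins, 5 of 8 of the condensins and chromosome proteins, 4 of 7 kinesins and 3 of 6 of the spindle and cytokinesis factors. The median log2 difference was -0.41, a difference of -24.96% (all genes: -0.0058), so that the shift was shared by many genes and modest in each. Of all genes tested 15.1% passed in this comparison, 7.61% as a fall and 7.52% as a rise, and 72.1% of the tested members fell. In 39 members both E9 arrays lay below both DMSO arrays (90.7%, against 26.7% of all genes). Leaving out DMSO 2 gave the lowest count, 22, and no array left out gave more than 31. Of the T cell markers 7 of 10 tested rose with E9 and 0 fell. Among B cell markers 2 of 8 fell and 0 rose. Among NK cell markers 2 of 4 rose and 0 fell. These were Eomes (865.5 and 758.1 with DMSO, 1429.4 and 1627.2 with E9) and the dim Klra4 (34.3 and 31.9, then 42 and 47.9). Klra4 was not above background on either DMSO array. Klrb1c stayed dim (36.4 and 33.5 with DMSO, 34.7 and 32.9 with E9) and Ncr1 was never above background, so the count gives no level of NK cells. Of 3 tested markers of CD4 and regulatory T cells 1 fell, Foxp3 (315.4 and 310.7 with DMSO, 274.4 and 246.8 with E9). Of 6 myeloid markers 1 passed, S100a8 (28.2 and 26.3 with DMSO, 37.7 and 47.2 with E9). S100a8 was above background only on the E9 arrays and passed the brightness filter through them, so its rise is not a test. The part of a changed cell mixture in the mitotic values was not tested.

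**Figure D2:**
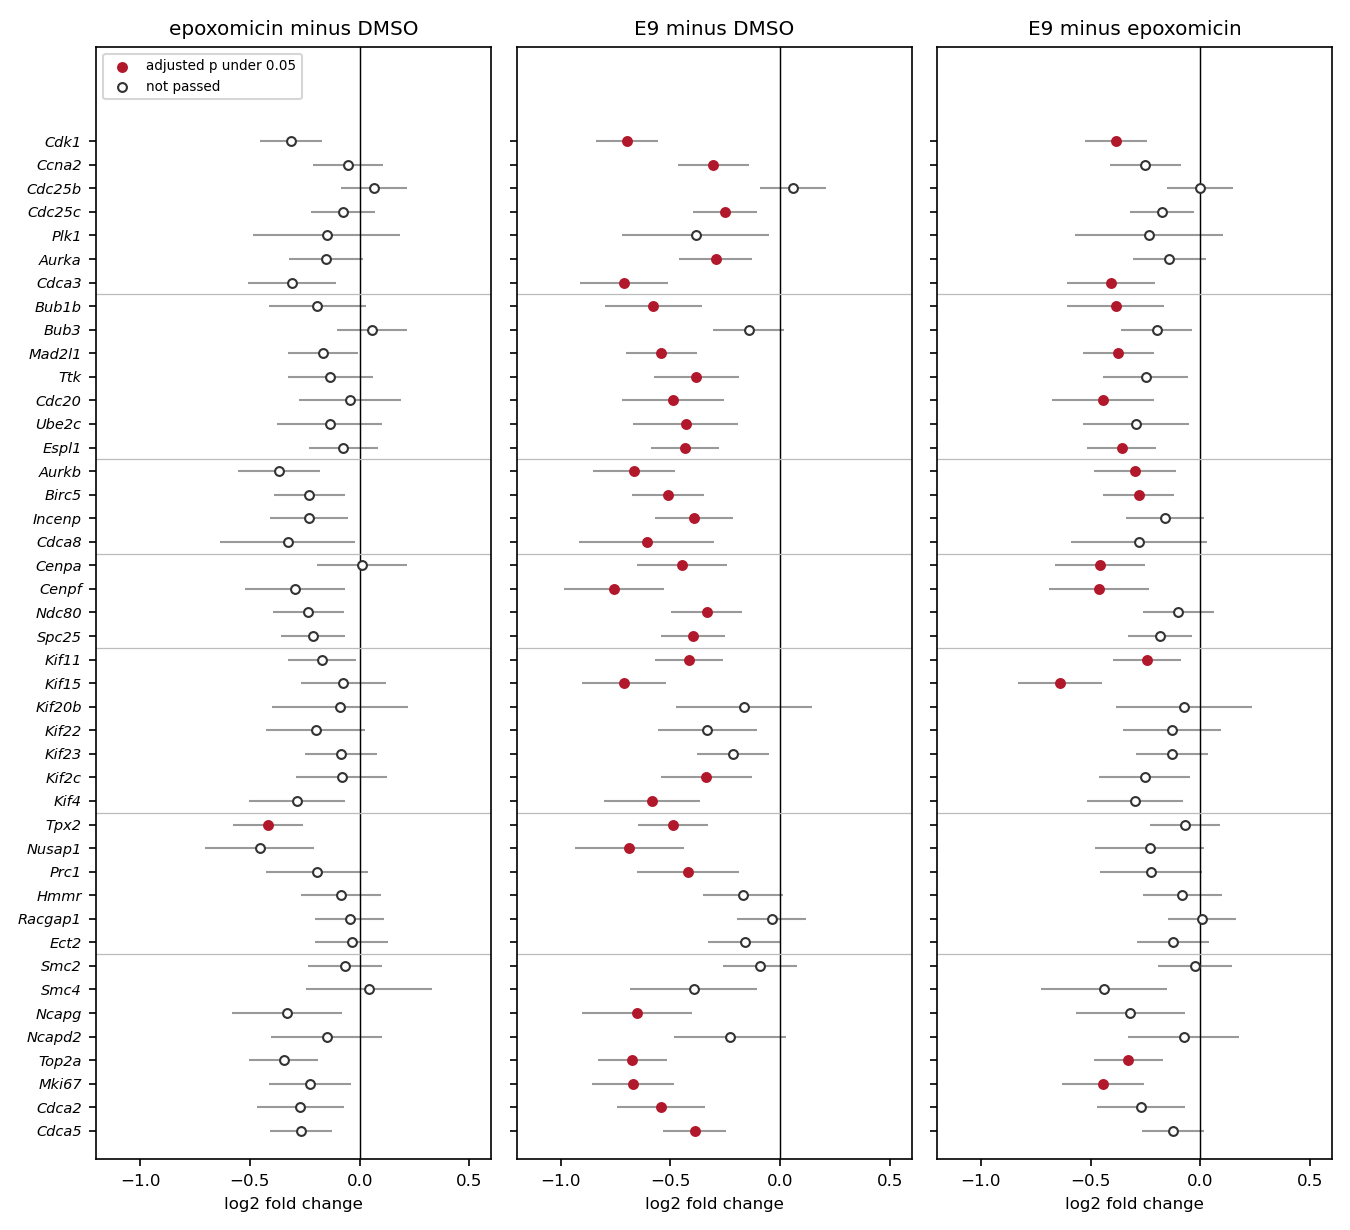
Log2 fold change of each tested member (rows, in the order of roles used in the text) in the 3 comparisons, with the 95% interval of the limma fit as a line. Red points passed at an adjusted p under 0.05: 1 in the left panel, 31 in the middle and 14 on the right, all lower.

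Among the genes of mitotic entry, Cdk1, the kinase itself, read 688.2 and 675.7 with DMSO, 532 and 555.8 with epoxomicin and 407.7 and 412.8 with E9. The 3 groups did not overlap and stood in that order. With E9 it fell by 0.70 on the log2 scale (SE 0.063, adjusted p = 6.83e-05), the smallest p of the 43. Cdca3, an adaptor of the ubiquitin ligase that removes the CDK1 inhibitor WEE1, went from 370.7 and 343.3 with DMSO through 270.5 and 297.2 with epoxomicin to 227.2 and 189.7 with E9, and it too kept the groups apart. Its fall was 0.71 on the log2 scale (SE 0.089, adjusted p = 0.000542). Ccna2 (cyclin A2), Cdc25c and Aurka (Aurora A) fell by 0.25 to 0.30 (adjusted p from 0.0183 to 0.0283). Cdc25b, another activating phosphatase, was the only tested member with a mean above DMSO, by 0.06 (interval -0.09 to 0.21, and -0.01 with all its probes averaged). Its probe was dim, at 37 and 32.1 with DMSO, 36.5 and 37.9 with epoxomicin and 37.2 and 36.9 with E9, so it bears little on direction.

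Plk1, the polo-like kinase that acts from entry to cytokinesis, did not pass, and its E9 arrays lay far apart. It read 164.1 and 188 with DMSO, 148.7 and 163.1 with epoxomicin, and 161.1 and 101.8 with E9. E9 1 was within the range of the other arrays and E9 2 was the lowest of all. The log2 difference from DMSO was -0.38 (SE 0.15, interval -0.72 to -0.05, adjusted p = 0.13), without E9 1 it was -0.66 (adjusted p = 0.00161), and without E9 2 it was -0.11, not past the threshold. Each of the last 2 values compares 1 E9 array, whose spread is borrowed from the other groups.

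Of the checkpoint and exit genes 6 of 7 fell. Mad2l1 encodes MAD2, which restrains CDC20, and read 941.7 and 840.6 with DMSO, 782.4 and 797.6 with epoxomicin and 602.7 and 605.1 with E9. The E9 arrays agreed closely and lay below the rest, with a fall of 0.54 on the log2 scale from DMSO (SE 0.071, adjusted p = 0.000741). Espl1, or separase, the protease that opens cohesin, read 105.3 and 100, then 101.6 and 91, then 67.9 and 70.9. Here DMSO and epoxomicin overlapped and E9 stood below them by 0.43 (SE 0.070, adjusted p = 0.00244, against DMSO). Bub1b, the checkpoint protein BUBR1, fell by 0.58, Cdc20 by 0.49, Ube2c, the ubiquitin-conjugating enzyme of the anaphase-promoting complex, by 0.43 and Ttk, the checkpoint kinase MPS1, by 0.38 (adjusted p from 0.00341 to 0.0234). Without DMSO 1 the difference of Ube2c was -0.28, no longer past the threshold. Cdc20 read 231.8 and 269.9 with DMSO, 255.2 and 229.5 with epoxomicin and 190.1 and 153.6 with E9, and it lost its call without DMSO 2 (adjusted p = 0.0982) and without E9 2 (adjusted p = 0.0522). Bub3 differed by -0.14 (interval -0.30 to 0.02, adjusted p = 0.246).

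The chromosomal passenger complex corrects faulty spindle attachments and later guides cytokinesis. Its catalytic subunit gene Aurkb (Aurora B) read 493 and 469.4 with DMSO, 397.9 and 339.4 with epoxomicin and 284 and 304.9 with E9. Birc5, which encodes survivin, read 626.3 and 651.1, then 543.3 and 538.5, then 467.3 and 415.4. Both genes showed 3 separate levels in the same order, with falls from DMSO to E9 of 0.66 (SE 0.083, adjusted p = 0.000536) and 0.51 (SE 0.072, adjusted p = 0.00113) on the log2 scale. The other subunits fell as well, Incenp by 0.39 (adjusted p = 0.00854) and Cdca8, or borealin, by 0.61 (adjusted p = 0.0149). The 2 E9 arrays of Cdca8 differed, at 365.1 and 252.8, against 445.9 and 510.2 with DMSO, and without E9 2 its difference was -0.36.

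At the kinetochore, Cenpf, a large protein of its outer part, had the lowest log2 difference of all tested members. Its intensities were 137.1 and 109.6 with DMSO, 105 and 86.2 with epoxomicin and 62.9 and 61.5 with E9. The DMSO arrays differed more than the E9 arrays, and no array of 1 group reached those of another. The fall with E9 was 0.76 (SE 0.10, adjusted p = 0.000795). Spc25, a subunit of the NDC80 complex that grips microtubules, read 274.1 and 261.2, then 230.7 and 223.7, then 191.7 and 202.2, in 3 separate levels, and fell by 0.40 (SE 0.065, adjusted p = 0.00267). Its further probe, of similar brightness, read 249.3 and 217.8, then 220.8 and 223.6, then 191.4 and 212.5. There DMSO and epoxomicin overlapped, and E9 did not pass against DMSO (-0.19, adjusted p = 0.176). Ndc80 itself fell by 0.33 (adjusted p = 0.0116) and Cenpa, the histone H3 variant that marks the centromere, by 0.45 (adjusted p = 0.00908). Cenpa followed another order than its neighbours, with 768.8 and 890.9 for DMSO, 814.2 and 854.5 for epoxomicin and 644.7 and 559.8 for E9, so that the epoxomicin arrays fell between the 2 DMSO arrays.

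Among the kinesins, Kif15, a motor that helps hold the spindle poles apart, read 272.5 and 308.8 with DMSO, 257.3 and 292.5 with epoxomicin and 174 and 160.4 with E9. DMSO and epoxomicin overlapped and E9 lay well below, by 0.71 from DMSO (SE 0.085, adjusted p = 0.000398). Kif11, or Eg5, the main motor of spindle bipolarity, read 170.1 and 154.7, then 137.6 and 144.8, then 113.7 and 117. Its groups were separate and it fell by 0.41 (SE 0.069, adjusted p = 0.0029). Kif4, a motor on chromosome arms, fell by 0.58 and Kif2c, which takes microtubules apart at the centromere, by 0.34 (adjusted p = 0.00296 and adjusted p = 0.037), the latter -0.22 without E9 2 (adjusted p = 0.176). Kif22, Kif23 and Kif20b, the first a chromosome motor and the others motors of the midzone and cytokinesis, did not pass (differences of -0.33, -0.21 and -0.17, adjusted p = 0.0555, 0.0845 and 0.531). Kif20b had the widest spread within DMSO, 252.2 and 190, and its difference was 0.02 without DMSO 1.

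**Figure D3:**
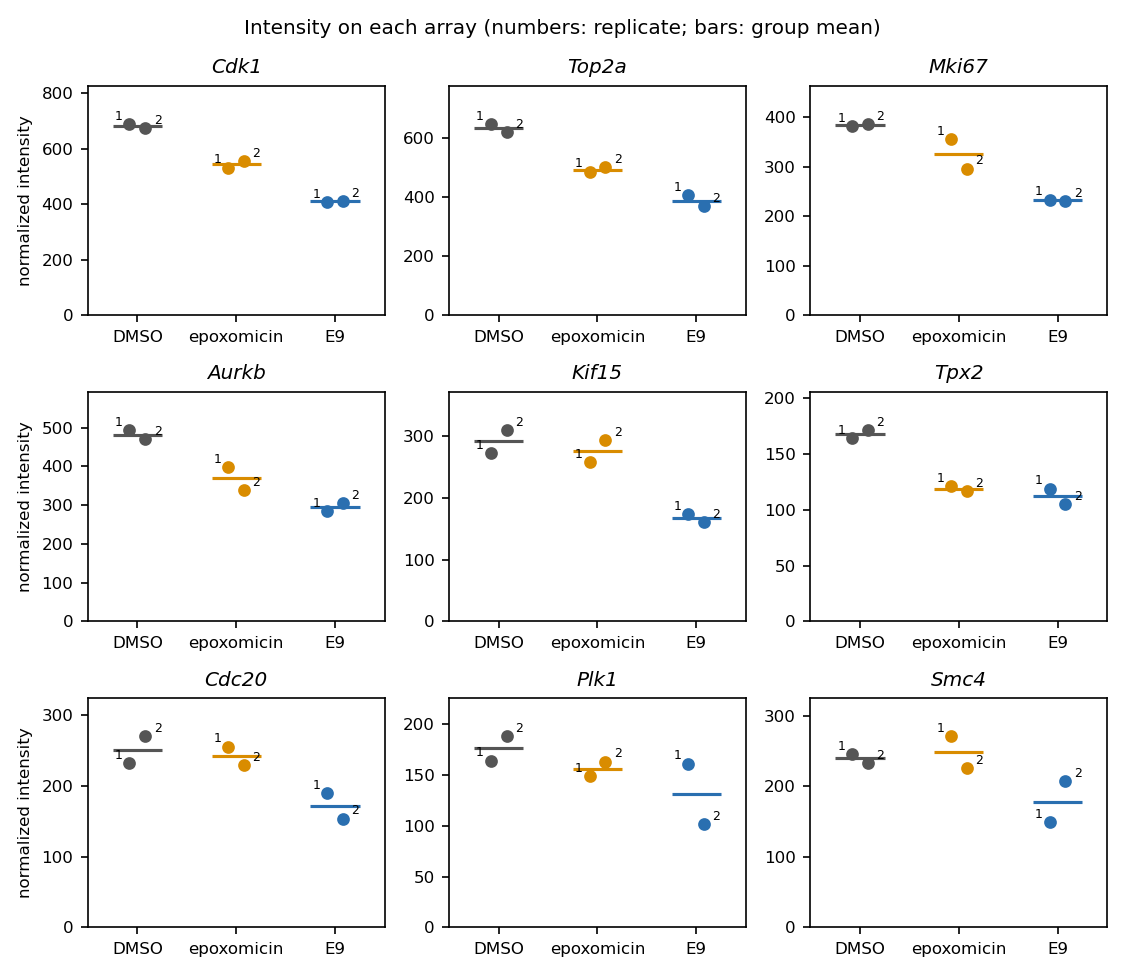
Normalized intensity of 9 members on each array (points, numbered by replicate), with the mean of the 2 arrays of a group as a bar and axes from 0. Cdk1, Top2a and Aurkb stand at 3 levels, Kif15 and Cdc20 overlap between DMSO and epoxomicin and are lower with E9, Tpx2 is similar with both compounds, and the E9 arrays of Plk1 and Smc4 lie far apart (161.1 and 101.8, 148.7 and 207.6).

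Of the spindle and cytokinesis genes, the 3 bright ones fell and the 3 dim ones did not pass. Tpx2 fell with E9 by 0.49 (SE 0.071, adjusted p = 0.00132), close to its value with epoxomicin. Nusap1, which bundles spindle microtubules around chromosomes, read 329.1 and 371.6 with DMSO, 273.3 and 224.8 with epoxomicin and 229.3 and 187.7 with E9. DMSO stood apart, while the epoxomicin and E9 ranges overlapped, and the fall with E9 was 0.69 (SE 0.11, adjusted p = 0.00244). Prc1, the bundling protein of the midzone, fell by 0.42 (adjusted p = 0.0223), and without E9 2 the difference was -0.26 (adjusted p = 0.0967). Hmmr, Racgap1 and Ect2 differed by -0.17, -0.04 and -0.16 with adjusted p from 0.204 to 0.811. Their probes were dim, with intensities from 30.5 to 48.3. Hmmr was not above background on either E9 array and had passed the brightness filter through 1 DMSO and 1 epoxomicin array.

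Of the chromosome proteins, Top2a, the topoisomerase that untangles sister DNA, read 647.5 and 622.1 with DMSO, 487.1 and 501 with epoxomicin and 407.8 and 369.7 with E9. Mki67, the Ki-67 proliferation antigen that coats mitotic chromosomes, read 382.2 and 385.4, then 354.9 and 296.1, then 233.6 and 230.2. In both genes the 3 groups were separate, with falls from DMSO to E9 of 0.67 (SE 0.070, adjusted p = 0.000163) and 0.67 (SE 0.083, adjusted p = 0.000499). Cdca2, which targets a phosphatase to chromatin, fell by 0.54 and Cdca5, or sororin, which protects cohesin, by 0.39 (adjusted p = 0.00264 and adjusted p = 0.00254). Of the members in condensin, the ring that compacts chromosomes, Ncapg fell by 0.65 (SE 0.11, interval -0.90 to -0.40, adjusted p = 0.00333). Smc4 (-0.39, interval -0.68 to -0.11, adjusted p = 0.0722), Ncapd2 (-0.23, interval -0.48 to 0.03, adjusted p = 0.244) and Smc2 (-0.09, interval -0.26 to 0.08, adjusted p = 0.531) did not pass. The intervals of Ncapg and Smc4 overlap. Smc4 read 245.6 and 233.2 with DMSO, 270.8 and 226 with epoxomicin and 148.7 and 207.6 with E9, and its difference was -0.60 without E9 2 and -0.18 without E9 1. Whether Smc4 and Ncapg differed from each other in response was not tested.

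Direct comparison of the compounds asked whether the activated cells that had met E9 held less mitotic RNA than those that had met epoxomicin, at the 1 dose of each. They did for 14 of the 43 members, and 0 members were higher. The 14 were Cdk1, Cdca3, Bub1b, Mad2l1, Cdc20, Espl1, Aurkb, Birc5, Cenpa, Cenpf, Kif11, Kif15, Top2a and Mki67, which include 4 of 7 checkpoint and exit genes and 0 of 6 spindle and cytokinesis genes. The median log2 difference was -0.25 (all genes: -0.0080), 42 of 43 had a lower mean with E9, and 33 did not overlap (76.7%, against 27.0% of all genes). Of all genes tested 12.6% passed, 6.0% as a fall and 6.62% as a rise, and 32.6% of the members fell. Cell type markers moved in the same comparison. Of 8 tested B cell markers 3 were higher with E9 (Igk-C by 2.15, Cd74 by 0.65 and H2-Aa by 0.42) and 0 lower. Of 10 T cell markers 5 were higher and 1 lower, and of 4 NK cell markers 1 was higher and 1 lower. Of 3 markers of CD4 and regulatory T cells 1 was lower, and of 6 myeloid markers 1 was higher. Their part in the mitotic differences was not tested. The doses differed, at 1 µM and 0.5 µM, so these values describe the treatments as given and not the compounds at equal dose.

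The lowest of these differences belonged to Kif15 (-0.64, SE 0.085, adjusted p = 0.000885), followed by Cenpf (-0.46), Cenpa (-0.46), Cdc20 (-0.44) and Mki67 (-0.44). Kif15, Cenpa, Cdc20 and Espl1 had values with epoxomicin that overlapped those with DMSO (epoxomicin minus DMSO from -0.07 to 0.01). Among the 31 members that had fallen against DMSO, Tpx2 lay at the other end, with a difference between the compounds of -0.07 (interval -0.23 to 0.09, adjusted p = 0.662). Ndc80 (-0.10), Cdca5 (-0.12) and Aurka (-0.14) were near it, with intervals that also include 0. This comparison leaned on single arrays: 3 members passed without epoxomicin 1, 7 without epoxomicin 2, 9 without E9 2 and 18 without E9 1. Of the 14, Cdk1 and Kif15 passed whichever array was left out. Under every setting 1 of the 14 passed, Kif15. With all probes of a gene averaged, Cdk1 (-0.13, adjusted p = 0.188), Cdca3 (-0.26), Birc5 (-0.33) and Cenpf (-0.22) lost the call.

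Of the 31 members that fell with E9 against DMSO, 19 passed whichever array was left out and under every other setting tried. The other 12, Ccna2, Cdc25c, Aurka, Ttk, Cdc20, Ube2c, Incenp, Cdca8, Cenpa, Ndc80, Kif2c and Prc1, lost the call in at least 1 of them, with the direction unchanged. Of the 12 that never had the call, Kif22, Kif23, Plk1, Smc4 and Ncapd2 gained it under at least 1 setting.

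Further probes of the same genes gave a check within the arrays, though not on other samples. For 21 tested members 30 further probes were above the filter. With E9 against DMSO 15 of the 30 fell in a fit of all named probes, 0 rose and 28 were lower (in the fit by gene 7.61% of all genes fell). Of 17 fallen members with a further probe 12 had a further probe that fell. With epoxomicin against DMSO 0 of the 30 fell and 0 rose. Between the compounds 4 of the 30 fell and 0 rose, and of 10 called members with a further probe 2 had a further probe that fell. The further Kif15 probe above the filter did not pass there (-0.18, limma adjusted p = 0.192). Mad2l1 had further values of 760.8 and 764.7 with DMSO, 708.2 and 677.1 with epoxomicin and 543 and 500.7 with E9 (-0.53, adjusted p = 0.000638). Cdca8, whose leading probe spread widely with E9, had further values of 298.1 and 326.3, 251.1 and 255.5, and 211.4 and 189.2 (-0.58, adjusted p = 0.000646). Cdk1 disagreed: its 2 further probes stayed between 31.4 and 36.3 on every array, about the level of background, so its values rest on 1 probe. Of the 3 Ncapd2 probes, a dim one fell (-0.25, adjusted p = 0.0258) and the brightest did not.

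The members below the filter could not be described. Bub1, Ccnb2 (cyclin B2), Cenpe, Kif20a, Nek2 and Nuf2 had 9 probes in all, with intensities from 25.2 to 33.1, and none passed the limit on any array. With Ccnb1 unmeasured, neither cyclin B1 nor cyclin B2 was read. Their dim probes give no level for the cells.

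The 2 arrays of a group did not differ alike across the members. The SD of the difference between them, over the 43 members, was 0.151 with DMSO, 0.137 with epoxomicin and 0.195 with E9 on the log2 scale (all genes: 0.119, 0.113 and 0.145). Taken as replicate 2 minus replicate 1, Plk1 differed by 0.17 with DMSO and -0.55 with E9, Cdca8 by 0.18 and -0.49, and Prc1 by 0.17 and -0.31. Smc4 went the other way (-0.07 and 0.42), as did Ncapg (-0.24 and 0.31) and Ube2c (-0.31 and 0.22). Across the 43 members these differences correlated with r = -0.62 between DMSO and E9, -0.44 between epoxomicin and E9 and 0.32 between DMSO and epoxomicin (all genes: -0.32, -0.20 and 0.21). The numbers only name the arrays, so a sign holds for this numbering alone, and members on 1 array share their RNA and hybridization. With 2 arrays a group, what set the arrays apart was not tested.

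**Figure D4:**
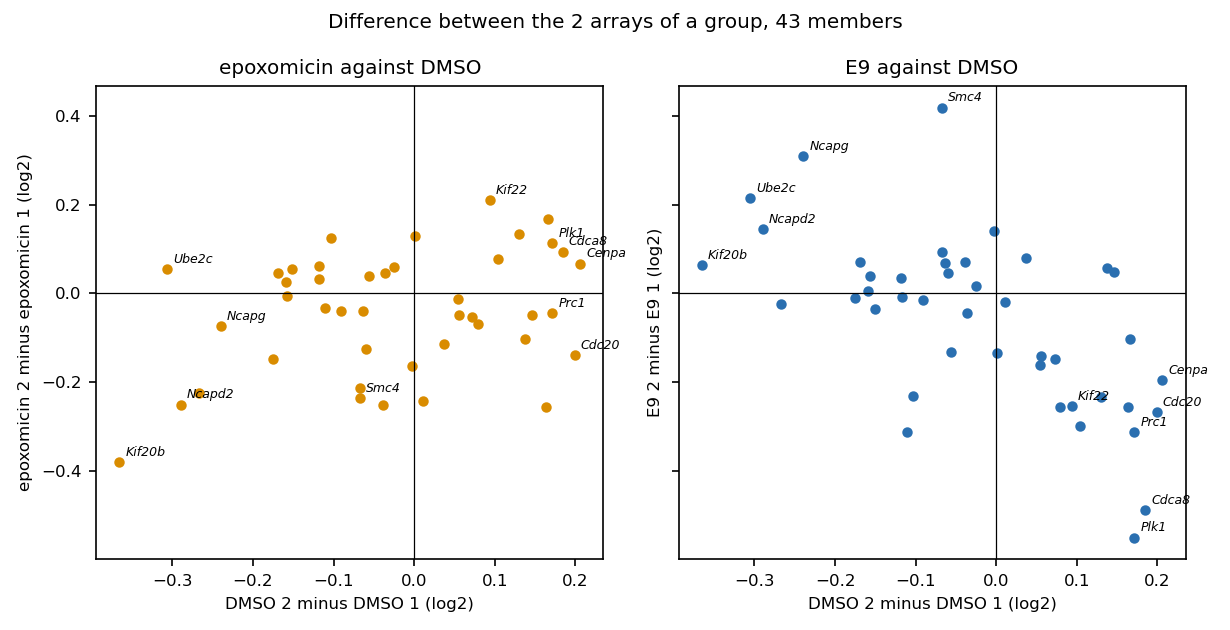
Difference between the 2 arrays of a group (replicate 2 minus replicate 1, log2) for each of the 43 members: epoxomicin (left) and E9 (right) on the vertical axis against DMSO on the horizontal axis. On the right Plk1 and Cdca8 lie at lower right (-0.55 and -0.49 with E9) and Smc4, Ncapg and Ube2c at upper left.

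Other genes of the division cycle, from lists drawn up for this account, showed where the lower values reached. In a list of 62 further G2/M genes, 30 of 56 tested fell with E9 against DMSO and 0 rose (median -0.30). That is 53.6%, where 7.61% of all genes fell. Among them were Oip5 (-0.78), which helps load CENP-A, Gtse1 (-0.76), a microtubule-binding protein of G2, Stmn1 (-0.68), which destabilizes microtubules, and Cenpp (-0.64), a protein of the inner kinetochore. With epoxomicin 2 of the 56 fell (3.57%, against 0.547% of all genes), Hjurp (-0.48), the chaperone of CENP-A, and Cenpp (-0.42). Between the compounds 13 were lower with E9 (23.2%, against 6.0% of all genes), with Oip5 (-0.68), Gtse1 (-0.56), Cenpk (-0.40) and Cenpm (-0.40) the lowest.

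DNA replication genes, used in S phase, were also lower: 18 of 40 tested fell with E9 and 0 rose (median -0.29). That is 45.0%, against 7.61% of all genes. They were led by Lig1 (-0.64), the ligase of Okazaki fragments, Gins2 (-0.61) and Cdc45 (-0.50), parts of the replicative helicase, and Chaf1a (-0.54), of the chromatin assembly factor. With epoxomicin 0 of the 40 passed (median -0.11), with the smallest adjusted p for Lig1 (-0.39, adjusted p = 0.0775) and Gins3 (-0.30, adjusted p = 0.144). At an unadjusted p under 0.05 in limma, 12 were lower and 0 higher, where 5.67% of all genes were lower and 5.58% higher. Between the compounds 2 of the 40 were lower with E9, Mcm10 (-0.44) and Rrm1 (-0.34). That is 5.0%, no more than the 6.0% of all genes, while the median difference of the list was -0.20.

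Of 18 tested regulators of cell cycle transcription, 4 fell with E9 and 0 rose: Tfdp2 (-0.56), a partner of E2F factors, Mybl2 (-0.51), which encodes B-MYB, Foxm1 (-0.45) and Rb1 (-0.28). None passed with epoxomicin (5 lower and 2 higher at an unadjusted p under 0.05 in limma) or between the compounds (3 and 1). With epoxomicin 5.67% of all genes were lower and 5.58% higher at that level. Between the compounds 12.2% of all genes were lower and 11.1% higher at that level, so 3 and 1 of 18 are near that share. Genes of the anaphase-promoting complex and its partners mostly did not pass, with 2 of 14 fallen with E9 (Fzr1, -0.35, and Cdc16, -0.24) and 1 risen (Anapc16, 0.58). In the cohesin list 1 of 10 fell, Esco2 (-0.52), an acetyltransferase of S phase. With E9 7.61% of all genes fell and 7.52% rose, so 1 or 2 calls in a list of such size are near that share. G1 cyclins and kinases were mixed, with Ccne2 (-0.37), Cdk4 (-0.37) and Ccnd2 (-0.27) fallen and Ccnd3 (0.32) risen of 9. Of 11 cell cycle inhibitors Cdkn1a, which encodes p21, rose with E9 (0.35 against DMSO, adjusted p = 0.00884, and 0.54 against epoxomicin, adjusted p = 0.000807) and the others did not pass. Against epoxomicin, E9 was also lower in Fzr1, Stag2, Ccne2 and Ccnd2 and higher in Anapc16 and Ccnd3, where 6.0% of all genes fell and 6.62% rose.

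**Figure D5:**
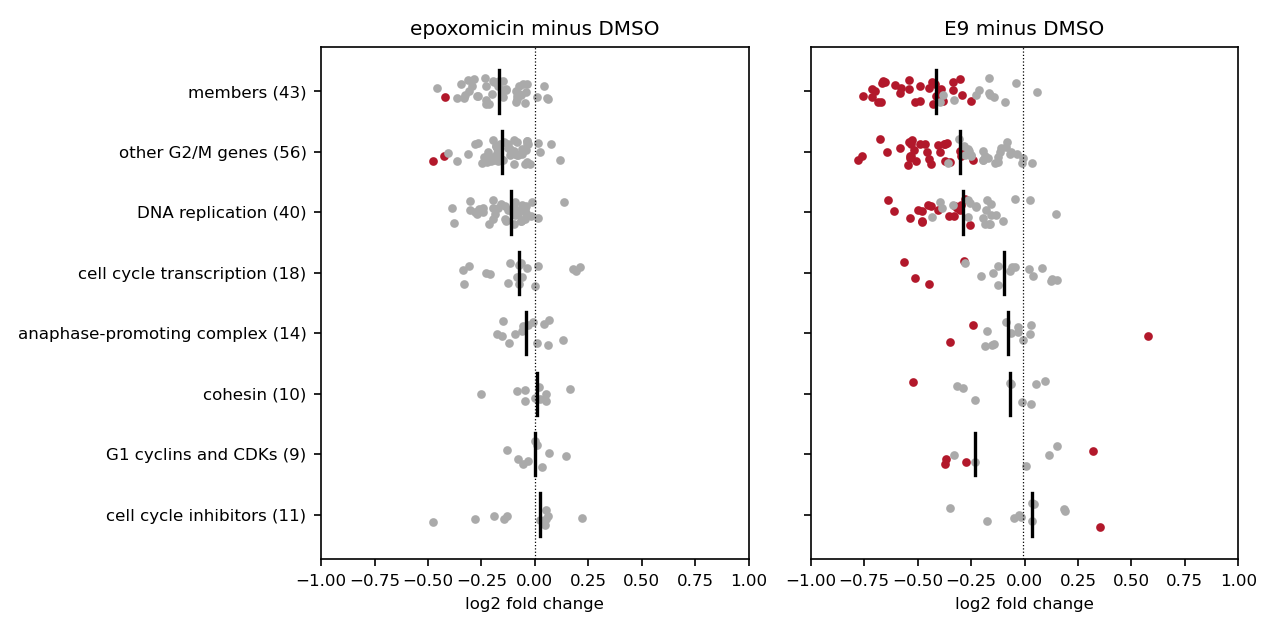
Log2 fold change of each tested gene (points, red where the adjusted p was under 0.05) in the members and in 7 other cell cycle lists, for epoxomicin and for E9 against DMSO, with the median of a list as a black bar and the number tested in brackets. With E9 the members have the lowest median (-0.41), followed by the further G2/M genes (-0.30) and DNA replication (-0.29).

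The promoter words were set beside the changes with E9, inside and outside the list. Among the 25 fallen members with a window, 23 held a CHR (92.0%), and among all 36 tested members with a window 33 did (91.7%). Mad2l1 and Nusap1, whose windows hold neither CHR nor CCAAT, fell by 0.54 and 0.69. Among the other genes tested, 9.14% of the 799 with CHR and CCAAT fell with E9 and 6.13% rose, beside 7.06% fallen and 8.58% risen of the 4827 with neither. Genes that fell and were no members held a CHR in 20.1% of 751 windows, close to the 20.4% of all tested genes.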

How the data were processed

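Total RNA was labelled by the submitters' Illumina protocol with streptavidin-Cy3 and read on bead arrays, 2 per group, and samples were grouped by their titles. The authors' deposited table holds linear intensity per probe, to 1 decimal. Its sorted values are the same on every array, so it had been quantile-normalized. The scanner software and treatment of background are not given in the sources used here. The non-normalized table was left out, since its 6 value columns match no sample label. Raw intensities had been foreseen, and normexp (offset 50) was applied to the normalized values, followed by log2. This offset makes log2 differences of dim genes smaller than their signal ratios. The background mode was 30.7 and the SD below it 2.31, which set the limit of 34.5. Of 45281 probes 35784 carried 1 symbol, 0 several and 9497 none, with 31257 matched to RefSeq and 4527 kept under the array's name. Probes above the limit on at least 2 of 6 arrays numbered 20349, and the brightest probe stood for each gene (13524 genes, 4521 with several probes).

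limma 3.58.1 in R 4.3.3 (lmFit, eBayes) fitted the 3 groups in 1 model, with 3 residual and 6.32 prior degrees of freedom and a median SE of 0.0722. The number of arrays limits the precision. Comparisons share arrays, so their calls are not independent. The procedure was tested on simulated data. Per-array values are given for members that passed with epoxomicin, the 2 members of each role with the smallest p for E9 against DMSO and any member of opposite sign, as a rule. Those of Plk1, Smc4, Cdc20, Cenpa, Cdca8 and Kif20b were added after their values were seen. Other lists name up to 4 passing genes by size, or 2 by p. The members and lists were chosen with earlier results of these data known. Windows came from RefSeq tables and figures from Python 3.11.15 with matplotlib 3.10.9.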

Additional observations from a re-analysis of the deposited data

How the results depend on the processing

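Under 16 settings no fold change of a member that passed, in the main or the other setting, turned sign, and 0 members rose. Of values not past the threshold, 18, 3 and 10 turned sign (epoxomicin and E9 against DMSO, E9 against epoxomicin; 684 values each), to between -0.09 and 0.12. The replicate number as a block gave 91 genes (170 without) and 0 members fallen for epoxomicin against DMSO, and it ended the call of Aurka, Ube2c and Kif2c for E9 against DMSO and of Aurkb, Birc5 and Kif11 between the compounds. Deviations of same-numbered arrays correlated at 0.21 (DMSO, epoxomicin), -0.32 (DMSO, E9) and -0.20 (epoxomicin, E9). With 2 arrays a group these values cannot decide whether arrays of different groups shared an animal, a culture or a day. A block with the E9 numbers crossed, added after the data were seen, gave 420 genes and 7 members for epoxomicin against DMSO and 23 members between the compounds. For epoxomicin against DMSO a fit of those groups alone gave 4 members and no brightness filter 2. An offset of 16 moved the member medians to -0.21, -0.51 and -0.31 (epoxomicin and E9 against DMSO, E9 against epoxomicin), and no background correction moved the last 2 to -0.46 and -0.30. Leaving out 1 array gave, in the same order, 1 to 238, 1228 to 1878 and 938 to 1608 genes, 0 to 4, 22 to 31 and 3 to 18 members fallen, and medians from -0.22 to -0.15, -0.45 to -0.40 and -0.25 to -0.20. Without epoxomicin 2 the epoxomicin comparison had 1 gene. Dim probes, such as those of Cdc25b, Hmmr and Racgap1, limit what can be seen.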
